A study of Arabidopsis thaliana with 18 samples.

Results

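The genes described here are 4 regulators of lateral root formation in Arabidopsis thaliana: PUCHI (AT5G18560), LBD16 (AT2G42430), LBD29 (AT3G58190) and CR4 (AT3G59420, also called ACR4). They were chosen by name, with earlier results of these data known. Each had 1 row of the deposited expression table that the platform's annotation assigns to exactly 1 gene. They are 4 of the 16542 genes that the table could be matched to in this way.

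Transcript levels were read from biotin-labelled RNA of pooled root tips, about 80 tips of 1 cm per sample, with 1 array per sample. Seedlings were 5 days old when they were moved to medium with 1 µM of the peptide TOLS2, for 3 h, or to medium without it. The 18 arrays form 6 groups of 3: puchi-2 with TOLS2 and puchi-2 control, rlk7-3 with TOLS2 and rlk7-3 control, and wild type (Col) with TOLS2 and wild-type control. The mutants are 1 allele each, of PUCHI and of the receptor kinase gene RLK7, and the labels describe neither lesion. The labels call the 3 arrays of a group biological replicates without naming separate cultures, so p-values measure the spread between these arrays.

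Lateral roots arise from founder cells in the pericycle, which auxin primes to divide asymmetrically. LBD16 and LBD29 are LOB-domain transcription factors that act downstream of the auxin response factors ARF7 and ARF19 in this step, and PUCHI, of the AP2/ERF family of transcription factors, orders cell divisions in the young primordium. CR4 is a receptor-like kinase that restricts divisions around founder cells and in the columella. TOLS2, named as a target of LBD16, is a secreted peptide that is perceived through RLK7 and limits where founder cells form.

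The values are log2 expression levels made by the authors with RMA, in which a difference of 1 is a 2-fold difference. Levels are compared for the same gene between arrays and not between genes, since each probe set has its own brightness. Tests are limma fits over 17481 probe sets with a gene annotation, and a change with a two-sided Benjamini-Hochberg adjusted p below 0.05 is termed called. The lowest correlation between any pair of arrays was 0.9825, over all 38408 rows of the deposited table. Of the root markers, EXPA7 and EXPA18, expansins of root hairs, lay between 8.75 and 9.18 and between 10.85 and 11.21 on all arrays.

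With TOLS2, PUCHI and LBD16 were higher in puchi-2-labelled and wild-type roots, and no change of CR4 was called. LBD29 was called in no single genotype. It was lower on average over the 3 genotypes, by a contrast added after the values were seen. PUCHI rose 1.91-fold on the puchi-2-labelled arrays and 3.89-fold in wild type, and LBD16 rose 1.43-fold in puchi-2 and 2.18-fold in wild type. In rlk7-3 none of the 4 passed the test, and for PUCHI and LBD16 the response differed from that of wild type by the test of the difference itself.

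Counted against all probe sets tested, 2 of the 4 genes were called in the puchi-2 response, where 1.60% of all probe sets were. None of the 4 was called in the rlk7-3 response, where 0.00572% of all probe sets were. In the wild-type response 2 of 4 were called, where 1.84% of all were. The 4 genes were chosen with earlier results of these data known, so these counts describe them and are no test. The 3 arrays with TOLS2 and the 3 controls did not overlap for 3 of the 4 genes in puchi-2, against 17.2% of all probe sets. The count was 1 of 4 in rlk7-3, against 12.2%, and 3 of 4 in wild type, against 18.7%. The median change of the 4 genes was 0.22 in puchi-2, -0.07 in rlk7-3 and 0.40 in wild type. Over all probe sets tested the median change was -0.01 in puchi-2, 0.06 in rlk7-3 and -0.04 in wild type.

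**Figure D1:**
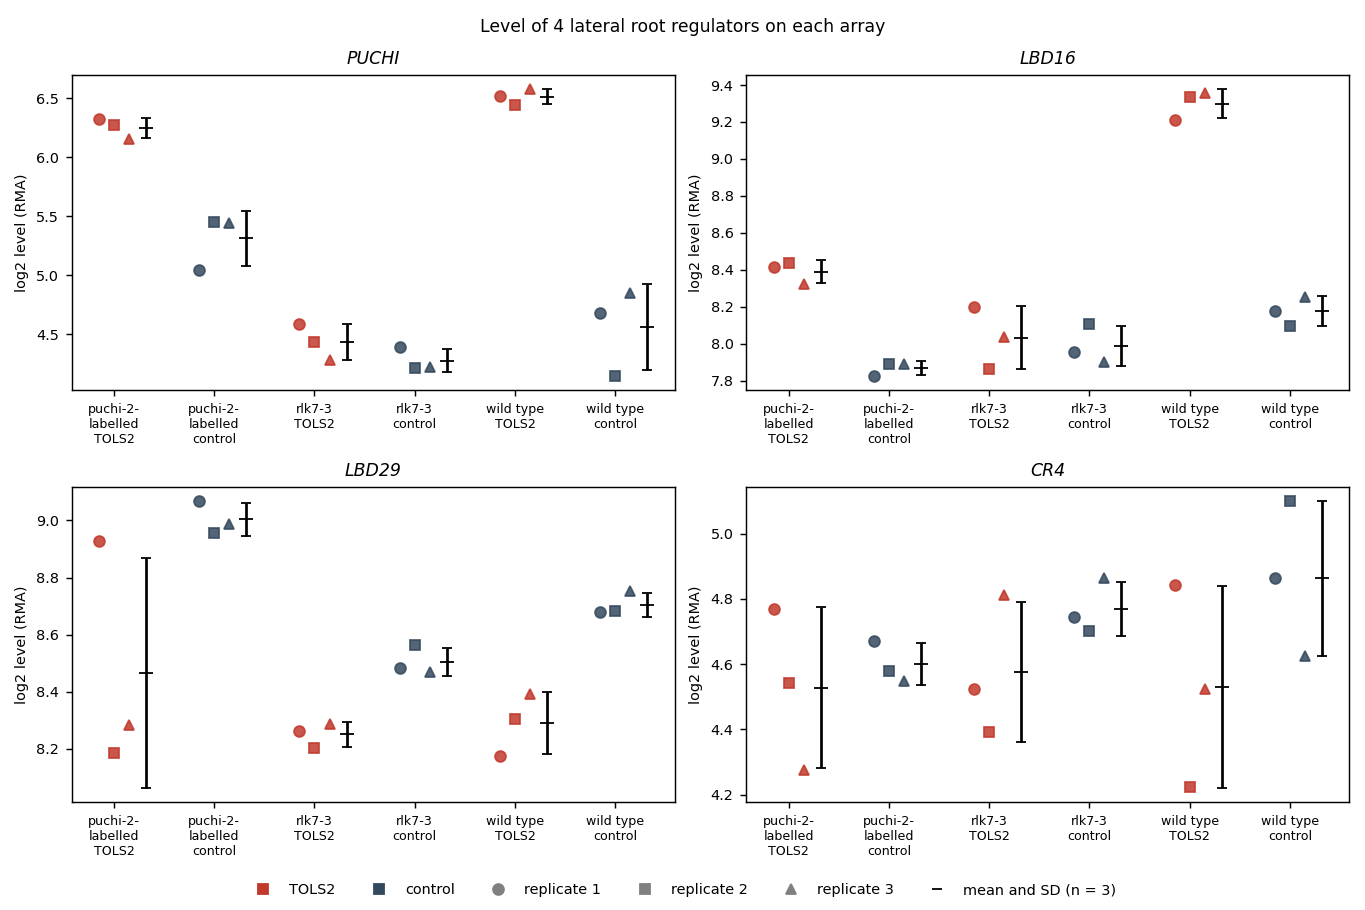
Log2 expression level (vertical axis) of PUCHI, LBD16, LBD29 and CR4 in the 6 groups, 1 panel per gene, with a point for each of the 3 arrays of a group and bars for the mean and SD. PUCHI and LBD16 are highest in wild type with TOLS2, while the 6 rlk7-3 arrays stay between 4.21 and 4.59 for PUCHI and between 7.86 and 8.20 for LBD16.

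On the puchi-2-labelled arrays the PUCHI probe set read 6.32, 6.27 and 6.15 with TOLS2, against 5.04, 5.45 and 5.44 in the controls. The groups did not overlap, and the change was 0.94 (95% interval 0.61 to 1.26, adjusted p = 0.0047). In whole root tips, more cells expressing a gene and more RNA per cell cannot be told apart. The call was lost in a fit of these 6 arrays alone (adjusted p = 0.0611) and without all replicate 1 arrays (0.77, adjusted p = 0.14). Among control arrays the signal of this mutated gene was not below wild type, at 5.31 ± 0.23 in puchi-2 and 4.56 ± 0.37 in wild type (SD, n = 3 each). The difference of 0.75 was not called (95% interval 0.43 to 1.08, adjusted p = 0.232). Its limma unadjusted p of 0.00018 was the 13th smallest of all probe sets tested. The labels do not say which part of the transcript the probes read or what the lesion is, so this reading does not check the genotype.

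On the rlk7-3 arrays PUCHI stood at 4.59, 4.43 and 4.28 with TOLS2, against 4.39, 4.21 and 4.22 in the controls. These arrays overlapped, and the difference of 0.16 was not called (95% interval -0.16 to 0.48, adjusted p = 0.856).

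PUCHI was measured at 6.52, 6.45 and 6.58 on the wild-type arrays with TOLS2, against 4.68, 4.15 and 4.85 on the wild-type control arrays. The lowest treated array lay well above the highest control array. The change was 1.96 (SE 0.15, 95% interval 1.63 to 2.28, adjusted p = 3.63e-06), the 14th largest rise of all probe sets tested.

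The rlk7-3 response of PUCHI differed from the wild-type response by -1.80 (SE 0.21, adjusted p = 0.00083). Without all replicate 1 arrays the difference was -1.88 (SE 0.27), and the call was narrowly lost (adjusted p = 0.0504). The PUCHI response in puchi-2 differed from that in wild type by -1.02 (95% interval -1.48 to -0.56), which had a limma unadjusted p of 0.000271 and an adjusted p of 0.709. It ranked the 5th smallest by p among 17481 probe sets. No probe set at all was called in that comparison. Of all probe sets, 708 had a limma unadjusted p under 0.05, a smaller share than the 0.05 that no differences would give. PUCHI was chosen with earlier results known, so its rank is no test. With TOLS2 the PUCHI level was 6.25 ± 0.09 in puchi-2 and 6.52 ± 0.07 in wild type (SD, n = 3 each), a difference of -0.27 that was not called (adjusted p = 0.659).

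In puchi-2, LBD16 was 8.41, 8.44 and 8.32 with TOLS2, against 7.83, 7.89 and 7.89 in the controls. All treated arrays lay above all controls, and the change of 0.52 was called (95% interval 0.34 to 0.70, adjusted p = 0.00498). As for PUCHI, the call was lost in a fit of these 6 arrays alone (adjusted p = 0.0631) and without all replicate 1 arrays (0.49, adjusted p = 0.0923).

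In rlk7-3, LBD16 was 8.20, 7.86 and 8.04 with TOLS2, against 7.96, 8.11 and 7.90 in the controls. The arrays were interleaved, and the difference of 0.05 was not called (95% interval -0.14 to 0.23, adjusted p = 0.938).

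LBD16 was at 9.21, 9.33 and 9.36 on the wild-type arrays with TOLS2, against 8.18, 8.09 and 8.25 on the wild-type control arrays. All treated arrays lay above all controls, and the change was 1.12 (SE 0.09, 95% interval 0.94 to 1.31, adjusted p = 2.9e-06). By size this rise ranked 58th, and by p it ranked 9th, ahead of PUCHI at 10th. The 3 arrays of a group lay closer together for LBD16, with a pooled SD within groups of 0.10 against 0.20 for PUCHI.

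For LBD16 the rlk7-3 response differed from that of wild type by -1.08 (SE 0.12, adjusted p = 0.000425). The puchi-2 response differed from that of wild type by -0.60 (95% interval -0.86 to -0.35, adjusted p = 0.709). That difference had the 2nd smallest unadjusted p of all probe sets, 0.000164 by limma, and was not called. As for PUCHI, this rank is no test.

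The transcription factor LBD16 was also the one member whose level with TOLS2 was called between puchi-2 and wild type. It averaged 8.39 ± 0.06 in puchi-2 with TOLS2 and 9.30 ± 0.08 in wild type with TOLS2 (SD, n = 3 each), a difference of -0.91 (95% interval -1.09 to -0.73, adjusted p = 0.000224). This was again the 2nd smallest p of all probe sets. The call was lost, though, in a fit of these 6 arrays alone (adjusted p = 0.0778) and without all replicate 1 arrays (-0.97, adjusted p = 0.0514). Among controls the difference was smaller, 7.87 ± 0.04 in puchi-2 and 8.18 ± 0.08 in wild type (SD, n = 3 each), which gave -0.31 (adjusted p = 0.517).

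LBD29, the other LOB-domain gene, had the opposite sign. In puchi-2 it read 8.93, 8.18 and 8.28 with TOLS2, against 9.07, 8.96 and 8.99 in controls. In rlk7-3 it read 8.26, 8.20 and 8.29 with TOLS2, against 8.48, 8.56 and 8.47 in controls. In wild type it read 8.17, 8.30 and 8.39 with TOLS2, against 8.68, 8.68 and 8.75 in controls. In each genotype all 3 treated arrays were below all 3 controls, and the 1st puchi-2 array with TOLS2 lay close to its controls, apart from the other two.

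In single genotypes these differences of LBD29 were not called. They were -0.54 in puchi-2 (95% interval -0.83 to -0.25, adjusted p = 0.0668), -0.25 in rlk7-3 (-0.55 to 0.04, adjusted p = 0.746) and -0.41 in wild type (-0.71 to -0.12, adjusted p = 0.184). These intervals share 1 estimate of spread from all 6 groups. It takes in the SD of 0.40 in puchi-2 with TOLS2, against 0.04 to 0.11 in the other groups. In rlk7-3 and in wild type LBD29 stayed uncalled in all 16 alternative fits. The response of rlk7-3 differed from that of wild type by 0.16 (95% interval -0.25 to 0.57), and that of puchi-2 by -0.12 (-0.54 to 0.29), neither of them called. Without the 1st puchi-2 array with TOLS2 the puchi-2 change was -0.77 and was called (adjusted p = 0.000101).

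The mean response over the 3 genotypes, a contrast of the same fit that was added after these values were seen, called LBD29 lower. The mean change was -0.40 (SE 0.08, 95% interval -0.57 to -0.23, adjusted p = 0.00866), or 1.32-fold. By this contrast 3 of the 4 genes were called, PUCHI and LBD16 higher and LBD29 lower, where 3.88% of all probe sets were. CR4 had a mean change of -0.20 (95% interval -0.40 to 0.00, adjusted p = 0.338).

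The probe set of CR4, the receptor kinase gene, was dim, as was that of PUCHI in controls. Its pooled SD within groups was 0.21, against 0.20 for PUCHI. In puchi-2 it read 4.77, 4.54 and 4.27 with TOLS2, against 4.67, 4.58 and 4.55 in controls. In rlk7-3 it read 4.53, 4.39 and 4.81 with TOLS2, against 4.75, 4.70 and 4.86 in controls. In both mutants the groups overlapped, with differences that were not called, -0.07 in puchi-2 (95% interval -0.42 to 0.28) and -0.19 in rlk7-3 (-0.54 to 0.15). It read 4.84, 4.22 and 4.53 in wild type with TOLS2, against 4.86, 5.10 and 4.63 in wild-type controls. Here too the groups overlapped, and the difference of -0.33 was not called (95% interval -0.68 to 0.01, adjusted p = 0.445).

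**Figure D2:**
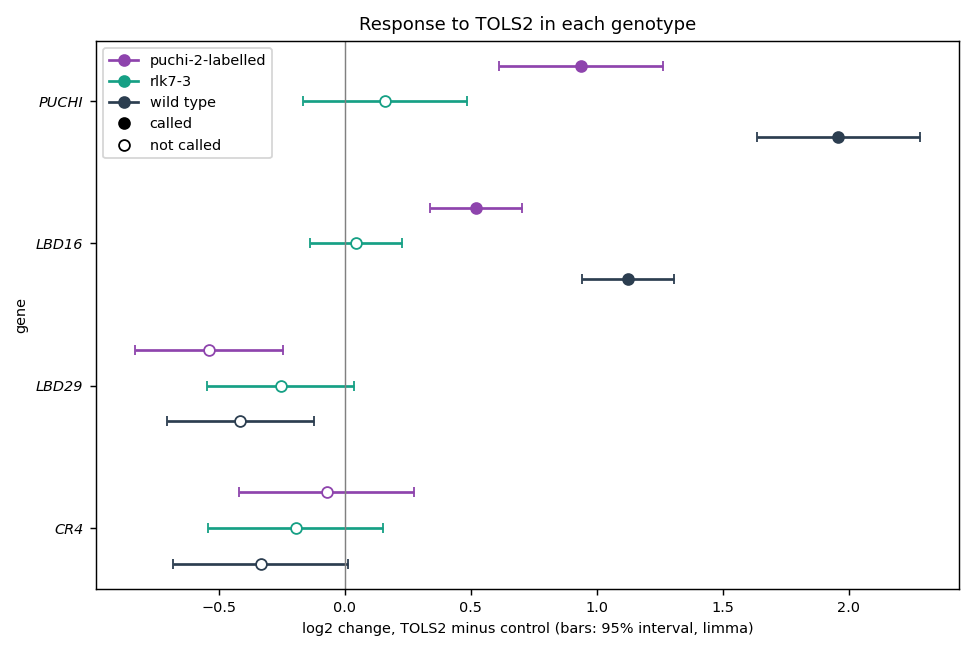
Log2 change with TOLS2 against control (horizontal axis) for the 4 genes in puchi-2, rlk7-3 and wild type, with 95% intervals from limma and filled points for called changes. PUCHI and LBD16 lie to the right of 0 in puchi-2 and wild type, LBD29 lies to the left of 0 in all 3 genotypes without a filled point, and the 4 rlk7-3 points are open.

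The difference between responses was called for 2 of the 4 genes between rlk7-3 and wild type, PUCHI and LBD16, where 0.383% of all probe sets were called. It was called for none of the 4 between puchi-2 and wild type, where the share of all probe sets was 0%. Between puchi-2 and rlk7-3 it was also called for none, where 0.309% of all were. The puchi-2 response of PUCHI exceeded that of rlk7-3 by 0.78 (95% interval 0.32 to 1.24, adjusted p = 0.225), and that of LBD16 by 0.48 (0.22 to 0.73, adjusted p = 0.157). The comparisons of both mutants use the same wild-type arrays, so their values are not independent of each other.

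The genotypes were also compared within each treatment. Among control arrays none of the 4 genes was called between rlk7-3 and wild type, where 0.0515% of all probe sets were. None was called between puchi-2 and wild type, where 0.0172% of all were. The arrays did not overlap for 1 of 4 genes between rlk7-3 and wild-type controls (LBD29, 15.4% of all probe sets) and for 3 of 4 between puchi-2 and wild-type controls (13.2% of all). For these 3 genes the differences of puchi-2 from wild type were 0.75 for PUCHI, 0.30 for LBD29 (adjusted p = 0.797) and -0.31 for LBD16.

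With TOLS2, 2 of the 4 genes were called between rlk7-3 and wild type, where 4.21% of all probe sets were. PUCHI averaged 4.43 ± 0.15 in rlk7-3 and 6.52 ± 0.07 in wild type (SD, n = 3 each), a difference of -2.08 (adjusted p = 1.26e-06). LBD16 averaged 8.03 ± 0.17 in rlk7-3 and 9.30 ± 0.08 in wild type (SD, n = 3 each), a difference of -1.27 (adjusted p = 7.65e-07). For both genes the arrays were apart, as they were for 23.9% of all probe sets. LBD29 and CR4 overlapped between these groups, with differences of -0.04 and 0.05. Between puchi-2 and wild type with TOLS2, 1 of 4 genes was called (LBD16), where 0.0744% of all were, and 2 of 4 did not overlap (PUCHI and LBD16), against 13.4% of all.

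**Figure D3:**
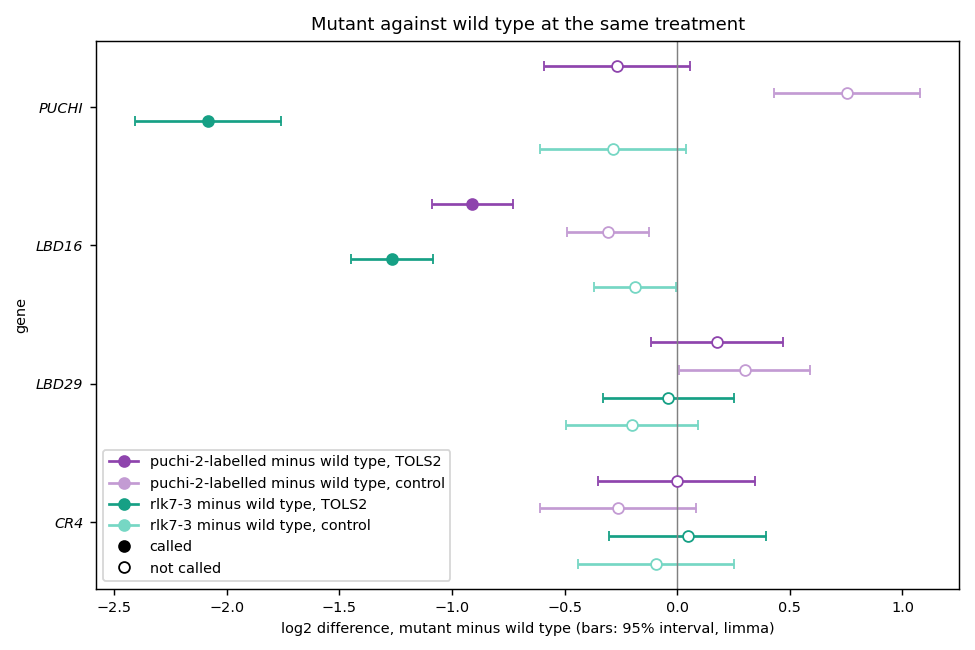
Log2 difference of each mutant from wild type (horizontal axis) for the 4 genes, among arrays with TOLS2 and among controls, with 95% intervals from limma and filled points for called differences. The filled points are PUCHI and LBD16 in rlk7-3 with TOLS2 and LBD16 in puchi-2 with TOLS2.

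Ordered by level, PUCHI was highest in wild type with TOLS2, followed by puchi-2 with TOLS2 at 6.25 ± 0.09, puchi-2 control at 5.31 ± 0.23, wild-type control at 4.56 ± 0.37, rlk7-3 with TOLS2 at 4.43 ± 0.15 and rlk7-3 control at 4.27 ± 0.10 (SD, n = 3 each). The last 3 groups overlapped with their neighbours in this order, and the first 3 did not.

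LBD16 had the same leading pair of groups, but its lowest group was puchi-2 control rather than rlk7-3 control. Its level was 9.30 ± 0.08 in wild type with TOLS2, 8.39 ± 0.06 in puchi-2 with TOLS2, 8.18 ± 0.08 in wild-type control, 8.03 ± 0.17 in rlk7-3 with TOLS2, 7.99 ± 0.11 in rlk7-3 control and 7.87 ± 0.04 in puchi-2 control (SD, n = 3 each). Wild-type control overlapped with rlk7-3 with TOLS2, which overlapped with rlk7-3 control.

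For LBD29 the 3 control groups came first and the order ran from puchi-2 control through wild-type control, rlk7-3 control, puchi-2 with TOLS2 and wild type with TOLS2 to rlk7-3 with TOLS2. The control levels were 9.00 ± 0.06 in puchi-2, 8.50 ± 0.05 in rlk7-3 and 8.70 ± 0.04 in wild type (SD, n = 3 each). The treated levels were puchi-2 with TOLS2 at 8.47 ± 0.40, rlk7-3 with TOLS2 at 8.25 ± 0.04 and wild type with TOLS2 at 8.29 ± 0.11 (SD, n = 3 each). The 4 lowest groups in this order overlapped with their neighbours.

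CR4 group means lay within 4.53 and 4.86, and only rlk7-3 control and its lower neighbour puchi-2 control did not overlap. Over the 18 arrays the range was 2.43 for PUCHI, 1.53 for LBD16, 0.89 for LBD29 and 0.88 for CR4. Differences between the 6 groups made up 96.8% of the variance of PUCHI, 97.3% of that of LBD16, 76.3% of that of LBD29 and 35.0% of that of CR4. These shares were not adjusted for the 6 means fitted to 18 arrays, which take up some variance even where groups do not differ. No comparison called CR4.

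Across the 18 arrays the members did not all move together. PUCHI and LBD16 correlated at r = 0.75, and at 0.44 once group means were taken out. LBD16 and LBD29 had r = -0.43, with 0.24 after group means were taken out, and PUCHI and LBD29 had r = -0.12. CR4 had r = -0.47 with PUCHI and 0.28 with LBD29. The arrays of 1 group share genotype and treatment, so these correlations describe the design as much as the genes.

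For each member the 5 genes with the most similar profile over the 18 arrays were taken by Pearson's r. For PUCHI these were LAC16, a laccase, at r = 0.96, AT1G47317 at 0.95, and AT4G39230, AT1G30760 and AT1G21520 at 0.94 each. LAC16 had a change of 0.60 in puchi-2 and 0.19 in rlk7-3, neither called, and of 1.15 in wild type, which was called. Of the 5, 4 were called higher in puchi-2, none in rlk7-3 and all 5 in wild type, which follows in part from choosing them on the same arrays. Once group means were taken out, their r with PUCHI was between 0.20 and 0.79, LAC16 having the highest.

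For LBD16 the 5 genes were AT5G07475, AT1G22885, AT5G66440, AT5G08250 and AT4G39720, with r from 0.92 to 0.94. Of these, 1 was called higher in puchi-2, none in rlk7-3 and all 5 in wild type, which again follows in part from how they were chosen. Once group means were taken out, their r with LBD16 was between -0.04 and 0.68, AT5G66440 having the lowest. For LBD29 the most similar was WES1 at r = 0.80, a GH3 enzyme (GH3.5) that conjugates auxin to amino acids. WES1 had -0.24 in puchi-2, -0.26 in rlk7-3 and -0.23 in wild type with TOLS2, none of them called, while its mean response of -0.25 was (adjusted p = 0.00574). The gene was chosen on these same arrays for its likeness to LBD29, so its lower mean response follows in part from that choice. The other four of LBD29 had r from 0.74 to 0.77. For CR4 the highest r was 0.87, with AT1G17620, and the others reached from 0.76 to 0.83. None of the genes most like LBD29 or CR4 was called in a single genotype, where at most 1.84% of all probe sets were.

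Most genes of the surrounding pathways were not analysed here, since few of them had a row assigned to exactly 1 gene. Of 44 lateral root genes in a list drawn up by name, the 4 measured were the members themselves. Of 85 auxin response genes 14 were measured, LBD16 and LBD29 among them. In wild type LBD16 was called higher and GH3.1, another auxin-conjugating enzyme, lower, with the other 12 not called and a median of -0.02. GH3.1 averaged 7.30 ± 0.24 with TOLS2 and 8.06 ± 0.14 in control (SD, n = 3 each), a change of -0.76 (adjusted p = 0.0388), and this call was lost without any 1 wild-type array other than the 1st with TOLS2 (adjusted p 0.0942 to 0.181). By the mean response over genotypes LBD16 was higher, and LBD29, GH3.1 and WES1 were lower, of the 14. In puchi-2 only LBD16 was called of the 14, with a median of -0.08, and in rlk7-3 none was, with a median of 0.04. Over all probe sets tested, 1.60% were called in puchi-2, 0.00572% in rlk7-3, 1.84% in wild type and 3.88% by the mean response. Between rlk7-3 and wild type with TOLS2, IAA18, an auxin response repressor, was lower beside LBD16, at -0.45 (adjusted p = 0.0091). Of all probe sets, 4.21% were called there. The IAA18 call was lost without the 2nd wild-type array with TOLS2 (adjusted p = 0.0568) and in a fit of these 6 arrays alone (adjusted p = 0.108).

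**Figure D4:**
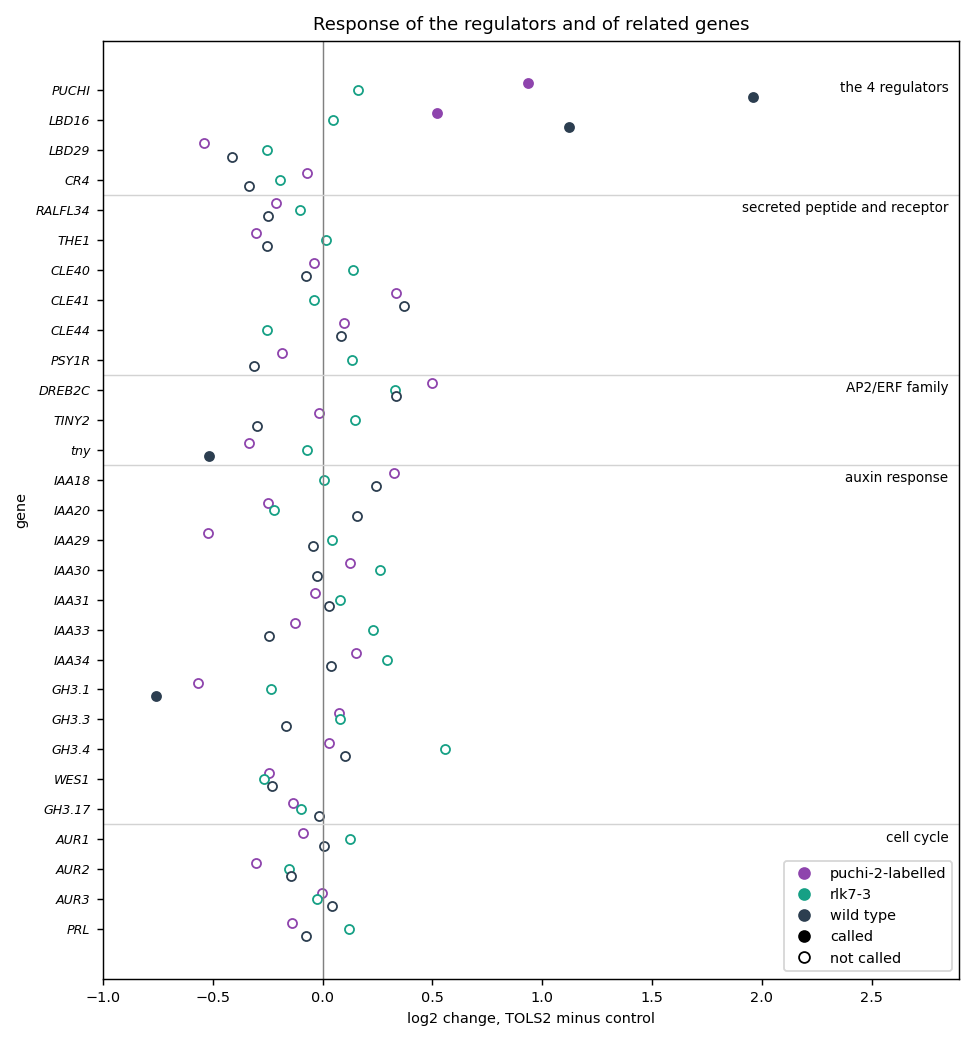
Log2 change with TOLS2 against control (horizontal axis) for the measured genes of the related lists in puchi-2, rlk7-3 and wild type, with filled points for called changes. LBD16 stands at 1.12 in wild type, to the right of the other auxin response genes, and GH3.1 at -0.76 is the lowest of them there.

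Among secreted peptides and receptors 6 of 38 were measured (RALFL34, THE1, CLE40, CLE41, CLE44 and PSY1R). None of them was called in any comparison, where at most 4.21% of all probe sets were. Their changes in wild type lay between -0.31 and 0.37, with a median of -0.16. CLE40, the peptide that acts with CR4 in the columella, had -0.04 in puchi-2, 0.14 in rlk7-3 and -0.08 in wild type. It was the only other measured gene of 18 written for the CR4 family and its partners. RLK7 was not analysed here.

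Of 44 cell cycle genes 4 were measured, the aurora kinase genes AUR1, AUR2 and AUR3 and the replication factor gene PRL. None was called in any single genotype, where at most 1.84% of all probe sets were. Their changes in wild type lay between -0.14 and 0.04. By the mean response AUR2 was lower, at -0.20 (adjusted p = 0.022), a call lost without the 1st puchi-2 control array (adjusted p = 0.0512). Of 35 genes of very-long-chain fatty acid synthesis, a pathway linked to PUCHI, 0 were measured.

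The AP2/ERF family of PUCHI had 3 further members measured by name: DREB2C, TINY2 and TINY (tny in the plot of related genes). TINY was lower in wild type, with 9.04 ± 0.10 with TOLS2 and 9.56 ± 0.14 in control (SD, n = 3 each), a change of -0.52 (adjusted p = 0.00293). It was thus opposite in sign to PUCHI. TINY had -0.34 in puchi-2, which was not called (adjusted p = 0.0553). With TOLS2 it was 9.66 ± 0.04 in rlk7-3 and 9.04 ± 0.10 in wild type (SD, n = 3 each), a difference of 0.62 (adjusted p = 0.0004). By the mean response over genotypes TINY was lower, at -0.31 (adjusted p = 0.00126), and DREB2C higher, at 0.39 (adjusted p = 0.0462), a call that was lost in 14 of the 18 fits that left out 1 array, with adjusted p up to 0.0985.

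Of 24 shoot markers 2 were measured. RCA, rubisco activase of green tissue, was lower in wild type, at 7.30 ± 0.15 with TOLS2 and 7.95 ± 0.16 in control (SD, n = 3 each), a change of -0.65 (adjusted p = 0.0355) whose call each of the 6 fits without 1 of its arrays lost (adjusted p 0.0531 to 0.162). Its change was -0.51 in puchi-2 (adjusted p = 0.117) and 0.03 in rlk7-3, neither of them called. This marker had the opposite sign to PUCHI and LBD16 in puchi-2 and wild type, and its part in their responses was not tested. RCA ran from 6.95 to 8.13 over all arrays. YAB3, a gene of leaf primordia, lay between 3.25 and 3.67 on all arrays and had 0.06 in puchi-2, 0.12 in rlk7-3 and 0.03 in wild type.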

How the data were processed

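The 18 arrays were assigned to 6 groups by their titles. The deposited values are log2 levels per probe set made with RMA, per the submitters' processing notes, with version, probe set definition and genome build not given in the sources used here. RMA brings arrays to a common distribution, so a shift shared by most genes is hidden, and it compresses changes of dim probe sets such as PUCHI and CR4. The table has 38408 rows, of which 16722 name 1 gene, 759 several and 20927 none. Symbols were updated with RefSeq TAIR10.1, which matched 16574 rows. All 17481 rows with a gene were fitted in R 4.3.3 with limma 3.58.1 (lmFit, eBayes, 6 group means, 12 residual degrees of freedom, no filter), for 11 comparisons. No arrays were duplicates (0 pairs). Genes named are the members, the 5 most correlated genes of each, and list genes that were called or needed for a group. The members and lists were chosen with earlier results of these data known, and the mean response over genotypes was added after the 3 responses were seen. The fit was tested on simulated data. Same-numbered arrays of a genotype correlated at 0.00 to 0.27 in their deviations, not all above 0.1, so numbers were not taken as pairs. Across all groups, arrays numbered 1 correlated at 0.05 to 0.35 (median 0.18). Those numbered 2 had -0.07 to 0.15 (median 0.07), and those numbered 3 had 0.03 to 0.21 (median 0.09). Alternatives varied normalization, centring, prior, weights, block, filter, rows and arrays.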

Additional observations from a re-analysis of the deposited data

Results flagged for a closer look

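The responses of PUCHI and LBD16 differed between genotypes by a test of the difference itself. The rlk7-3 response of PUCHI minus its wild-type response was -1.80 (adjusted p = 0.00083). The rlk7-3 arrays with TOLS2 overlapped with the rlk7-3 control arrays, while all wild-type arrays with TOLS2 were above all wild-type controls. For LBD16 the same difference was -1.08 (adjusted p = 0.000425). Both genes were measured on the same 12 arrays, so the values are not independent. Groups of 3 arrays are too small for a check of single arrays against the rest.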

How the results depend on the processing

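Of 44 member results, 29 kept their direction and their side of the threshold under every alternative run, 6 gained or lost a call and 9 changed sign. These sign changes (18 of 802 alternatives) touched no called result. With TOLS2 in rlk7-3, LBD16 (0.05) had -0.00208 after renewed quantile normalization, -0.0159 with array weights, -0.0544 without all replicate 1 arrays and -0.0384 to 0.13 without 1 array. Between puchi-2 and wild type with TOLS2, CR4 (-0.00222) had 0.00103 after centring, 0.094 with array weights, 0.0336 without all replicate 1 arrays and -0.16 to 0.15 without 1 array, and LBD29 (0.18) had -0.11 without all replicate 1 arrays and -0.0553 to 0.32 without 1 array. The other six changed sign only when 1 array was left out: CR4 in puchi-2 (-0.19 to 0.0547), in the difference of the rlk7-3 and wild-type responses (-0.0135 to 0.30), and between rlk7-3 and wild type in controls (-0.21 to 0.0252) and with TOLS2 (-0.11 to 0.20), and LBD29 in the difference of the puchi-2 and wild-type responses (-0.36 to 0.0163) and between rlk7-3 and wild type with TOLS2 (-0.10 to 0.0124). With TOLS2 in puchi-2, LBD29 passed the test with an intensity trend and robust prior (-0.54, adjusted p = 0.0273), with array weights (-0.69, adjusted p = 0.00349), among the brighter probe sets (-0.54, adjusted p = 0.0276) and without all replicate 1 arrays (-0.74, adjusted p = 0.00836). Leaving out 1 array at a time gave -0.77 to -0.40. Array weights called LBD16 between the puchi-2 and rlk7-3 responses (0.56, adjusted p = 0.0482). In fits of only the groups compared, 3 calls were lost: PUCHI in puchi-2 (0.94, adjusted p = 0.0611), LBD16 in puchi-2 (0.52, adjusted p = 0.0631) and LBD16 between puchi-2 and wild type with TOLS2 (-0.91, adjusted p = 0.0778). Without all replicate 1 arrays 4 were lost: PUCHI in puchi-2 (0.77, adjusted p = 0.14), LBD16 in puchi-2 (0.49, adjusted p = 0.0923), PUCHI between the rlk7-3 and wild-type responses (-1.88, adjusted p = 0.0504) and LBD16 between puchi-2 and wild type with TOLS2 (-0.97, adjusted p = 0.0514). The fit without all replicate 1 arrays had fewer arrays and fewer residual degrees of freedom. Leaving out any 1 array lost no member call. The replicate number as a block changed no member call (PUCHI in puchi-2 0.94, adjusted p = 0.0074), and not every array correlated best with its own number.

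The called counts over all alternatives were 39 to 556 for puchi-2 (279 as reported), 0 to 16 for rlk7-3 (1), 174 to 576 for wild type (321) and 449 to 1091 for the mean response (679). They were 28 to 101 for the difference of the rlk7-3 and wild-type responses (67), 0 to 12 for puchi-2 and wild type (0) and 7 to 88 for puchi-2 and rlk7-3 (54). Among controls they were 1 to 20 for rlk7-3 against wild type (9) and 1 to 8 for puchi-2 (3), and with TOLS2 208 to 1164 (736) and 1 to 64 (13). LBD29 stayed called in the mean response in all 28 alternatives, with adjusted p up to 0.0217. In fits of only the wild-type arrays, GH3.1 (adjusted p = 0.0725), RCA (adjusted p = 0.0722) and TINY (adjusted p = 0.0812) were no longer called. The filter on brightness removed PUCHI and CR4.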
